A study of Mus musculus with 6 samples.

Results

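The endogenous opioid system was examined here through 7 genes, 3 that encode peptide precursors (Penk, Pdyn and Pnoc) and 4 that encode receptors (Oprm1, Oprd1, Oprk1 and Oprl1). They were picked by symbol out of 26264 symbols in the deposited count tables, and 7 of 7 were among the 14739 genes that passed the filter on low counts and were tested. The tables come from the dissected basolateral amygdala of male Mus musculus. In them, 3 libraries of unstressed controls (Ctrl) were compared with 3 libraries of chronic restrained stress (CRS). In this treatment an animal is repeatedly held immobile, and the comparison asks which transcripts differ between stressed and unstressed amygdala. All animals were male and no genotype is named. The sources used here do not give strain, age, the length of the restraint or whether a library is 1 mouse or a pool. Libraries of a group are biological replicates by their labels.

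Opioid peptides are cut from large precursors and stored in dense-core vesicles. Penk gives the enkephalins, which act mainly on the delta receptor Oprd1 and the mu receptor Oprm1. Pdyn gives the dynorphins, the ligands of the kappa receptor Oprk1, and Pnoc gives nociceptin, the ligand of Oprl1. All 4 receptors couple to inhibitory G proteins, which lower cyclic AMP, open inwardly rectifying potassium channels and close presynaptic calcium channels. In and around the amygdala, enkephalin and mu receptor are prominent in the GABAergic intercalated cells and the central nucleus, dynorphin and the kappa receptor are tied to aversion and anxiety, and the neighbouring striatum makes enkephalin in its Drd2 neurons and dynorphin in its Drd1 neurons.

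The dissection of each library was described with marker lists, which were chosen with earlier results of these data known. Slc17a7, the vesicular glutamate transporter of cortical-type projection neurons, was at 719 to 1184 CPM (counts scaled to a common library size) across the 6 libraries, so the defining excitatory marker was present in all of them. Libraries held 9859449 to 10233706 counts in genes. The summed level of 18 striatal markers ran from 1071 to 2361 CPM in 5 libraries and was 484 CPM in stress 1. Control 1 was the highest and stress 1 the lowest library for 18 of the 18. The summed level of 12 choroid plexus markers was 3804, 6770 and 9154 CPM in control 1, control 2 and stress 2 and 149 to 236 CPM in the other 3 libraries. Oligodendrocyte markers had the same extreme libraries, with control 1 highest for 10 of 10 (summed level 3521 CPM) and stress 1 lowest for 9 of 10 (1742 CPM). Stress 1 therefore stands apart in striatal markers, and 3 libraries stand apart in choroid plexus markers. The fold changes of Penk, Pdyn, Oprk1, Oprd1 and Oprm1 are given with and without stress 1. Those of single genes outside the opioid set are given for all 6 libraries only.

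Upstream sequence is shown for Oprd1, the gene of the set with the smallest unadjusted p, and for the precursor gene Pdyn, whose library values spread widely. Both stretches are the 250 bases before the annotated start in RefSeq on GRCm38.p6, which is not the mm39 build named in the submitters' processing notes. Of the 7 genes 4 had an entry (Pdyn, Oprm1, Oprd1 and Oprl1), and Penk, Pnoc and Oprk1 had none. Capitals mark the E-box CACGTG. The Oprd1 stretch is chr4:132144487-132144736 and the Pdyn stretch chr2:129699939-129700188, both on the minus strand and written 5′ to 3′. Pdyn has a further annotated start, and the upstream one is shown.
Oprd1: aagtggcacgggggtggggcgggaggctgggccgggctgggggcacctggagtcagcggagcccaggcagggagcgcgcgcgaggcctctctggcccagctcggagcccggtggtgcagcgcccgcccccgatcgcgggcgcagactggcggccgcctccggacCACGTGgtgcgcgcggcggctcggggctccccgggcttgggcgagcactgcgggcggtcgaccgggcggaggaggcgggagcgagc
Pdyn: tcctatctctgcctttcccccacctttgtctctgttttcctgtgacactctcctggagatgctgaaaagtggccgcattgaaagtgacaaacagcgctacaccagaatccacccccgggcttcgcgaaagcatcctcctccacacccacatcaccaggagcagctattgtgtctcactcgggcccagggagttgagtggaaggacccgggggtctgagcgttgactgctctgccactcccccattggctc

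The Oprd1 stretch was 80.0% G and C, above 98.8% of 32851 upstream stretches of the same length, whose median was 52.4%. It held 1 CACGTG, a palindrome that 6.02% of those stretches hold. The Pdyn stretch was 57.2% G and C. Neither held the full cyclic AMP response element TGACGTCA (in 1.55% of all stretches), its shorter core TGACG on either strand, which overlaps the full element (17.8%), or the AP-1 site TGACTCA on either strand (4.46%). These are matches of letters only, and no binding was measured.

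No opioid gene passed the test for stress against control. With edgeR's quasi-likelihood test and a threshold of 0.05 on the adjusted p, 0 of the 7 were called, as were 0 of all 14739 tested genes (0%). Each of the 7 had an adjusted p of 0.997. At an unadjusted p under 0.05 there was 1 of 7, Oprd1, against 496 of all tested genes (3.37%), of which those lower in stress made up 2.04% of tested genes. The estimates of 7 of 7 lay below 0, against 51.6% of all tested genes, whose median log2 fold change was -0.0044. The 7 genes were read in the same libraries, so their signs are not separate observations. Without control 1, Pnoc (0.05) and Oprm1 (0.08) lay above 0. Groups did not overlap for 2 of 7, Oprd1 and Oprl1, both lower in stress, against 8.28% of tested genes in either direction and 4.48% in that direction. Other tests called 4 genes (edgeR's likelihood ratio test), 2 genes (DESeq2) and 0 genes (limma-voom) over all genes, and no opioid gene was among them.

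**Figure D1:**
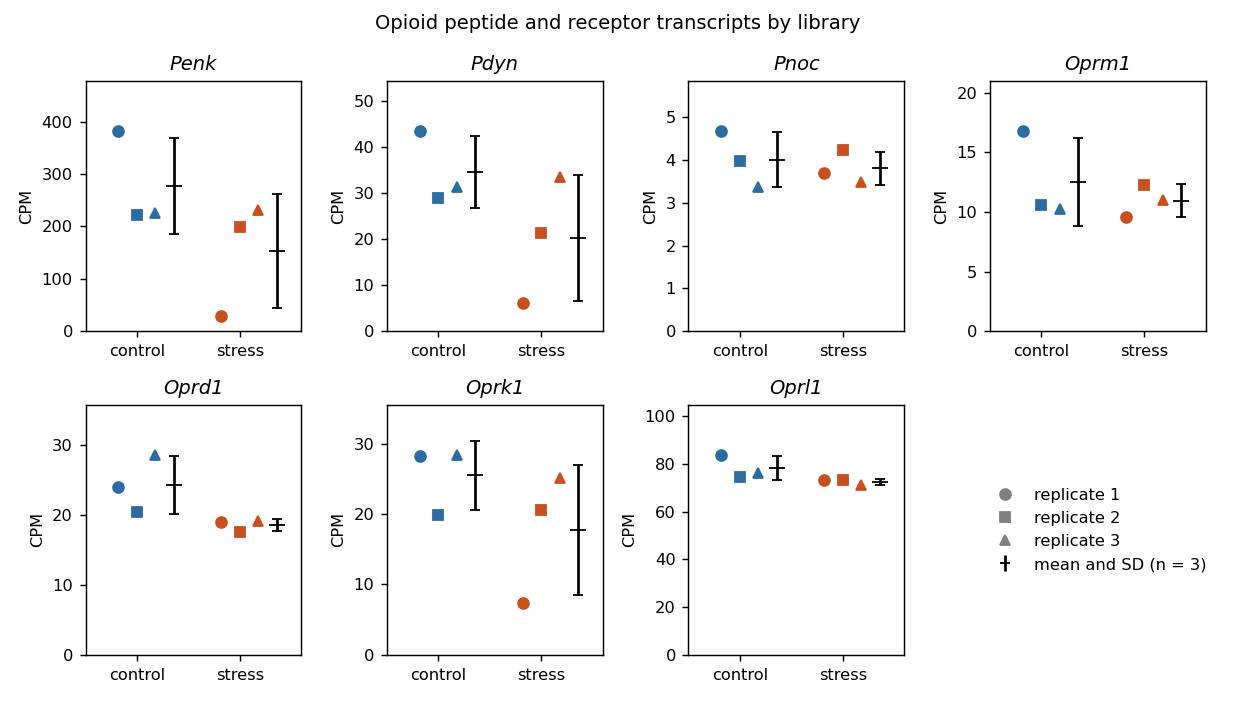
Level of each opioid gene in CPM (y axis, from 0) by group (x axis), with 1 point per library, replicate number by symbol, and the mean and SD of each group (n = 3) in black. Stress 1 (orange circle) lies far under the other libraries for Penk, Pdyn and Oprk1, while the stress points of Oprd1 lie close together under the control points.

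Penk, the enkephalin precursor, was measured at 382, 221 and 226 CPM in controls 1 to 3. In stress 1 to 3 it was at 29.6, 198 and 231 CPM. Control 1 was the high library and stress 1 the low one, and the other 4 lay close together, so that stress 3 was above both control 2 and control 3. Control libraries averaged 276 ± 91.2 CPM and stress libraries 153 ± 108 CPM (SD, n = 3 per group). Penk had a log2 fold change of -0.85 ± 0.81 (SE), with a 95% interval from -3.00 to 1.29 (unadjusted p = 0.343, adjusted p = 0.997, edgeR). The interval spans a large change in either direction. Without stress 1 the estimate was -0.37 (-1.11 to 0.38), and without both control 1 and stress 1 it was -0.06 (-0.29 to 0.17).

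Pdyn, the dynorphin precursor, was at 43.4, 28.9 and 31.3 CPM in controls and at 6.06, 21.4 and 33.4 CPM in stress 1 to 3. As for Penk, control 1 was highest, stress 1 was lowest and the groups overlapped. For Pdyn the log2 fold change was -0.77 ± 0.59, with an interval from -2.27 to 0.73 (unadjusted p = 0.247, adjusted p = 0.997, edgeR). It was -0.33 without stress 1 and -0.14 (-0.68 to 0.40) without control 1 and stress 1. Stress 2 was the lowest of those 4 libraries.

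Pnoc, the nociceptin precursor, was the least counted of the precursors, at 4.67, 3.98 and 3.37 CPM in controls and 3.70, 4.23 and 3.48 CPM under stress. These values rest on 33 to 47 counts per library. The stress values lay inside the control range, and stress 1 was not low. Stress differed from control by -0.08 ± 0.20 on the log2 scale, with an interval from -0.54 to 0.39. The coefficient of variation among controls, 16.2%, was about that of counting error alone, 15.7%. A difference between control libraries was therefore not detectable at this depth.

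Among the receptors, Oprd1, the delta receptor that binds enkephalins, had 24.1, 20.4 and 28.6 CPM in controls and 19.0, 17.6 and 19.2 CPM under stress. Each stress library was under the lowest control, control 2, though by a small margin. Means were 24.3 ± 4.13 CPM and 18.6 ± 0.846 CPM (SD, n = 3 each). The log2 fold change was -0.39 ± 0.13, with an interval from -0.69 to -0.09 (unadjusted p = 0.0177, adjusted p = 0.997, edgeR). It was the only one of the 7 intervals that did not include 0, and it did not pass once adjusted over all genes. The estimate was -0.40 without stress 1 and -0.26 without control 3. Without control 1 and stress 1 it was -0.41, with an interval that includes 0 (-0.83 to 0.01). The unadjusted p of edgeR was 0.0619 without control 3 and 0.0571 without stress 2. Stress libraries differed from each other by 4.55% (coefficient of variation), less than the 7.37% that counting error gives on average, while controls differed by 17.0%.

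Oprl1, the nociceptin receptor, was the most even of the set. It was at 83.8, 74.6 and 76.0 CPM in controls and 73.2, 73.0 and 71.0 CPM under stress, on 713 to 843 counts per library. The groups did not overlap, with control 2 less than 2 CPM above stress 1. For Oprl1 the log2 fold change was -0.11 ± 0.07, with an interval from -0.27 to 0.05 (unadjusted p = 0.145, adjusted p = 0.997, edgeR), and -0.05 without control 1. The lower bound lies above the estimate for Oprd1.

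Oprk1, the kappa receptor, was at 28.2, 19.9 and 28.4 CPM in controls and 7.39, 20.5 and 25.1 CPM under stress. Stress 1 was low, and stress 2 and 3 lay inside the control range. The log2 fold change was -0.53 ± 0.44 (-1.62 to 0.57, unadjusted p = 0.280, adjusted p = 0.997, edgeR). Without stress 1 it was -0.16 (-0.58 to 0.26), and without control 1 and stress 1 it was -0.08.

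Oprm1, the mu receptor and the main target of morphine, was at 16.8, 10.6 and 10.2 CPM in controls and 9.55, 12.3 and 11.0 CPM under stress. Control 1 was high and the other 5 libraries lay between 9.55 and 12.3 CPM. The log2 fold change was -0.19 ± 0.21 (-0.68 to 0.29, unadjusted p = 0.386, adjusted p = 0.997, edgeR). Without stress 1 the estimate was -0.10 (-0.65 to 0.44). Its sign turned without control 1 (0.08) and without control 1 and stress 1 (0.16).

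**Figure D2:**
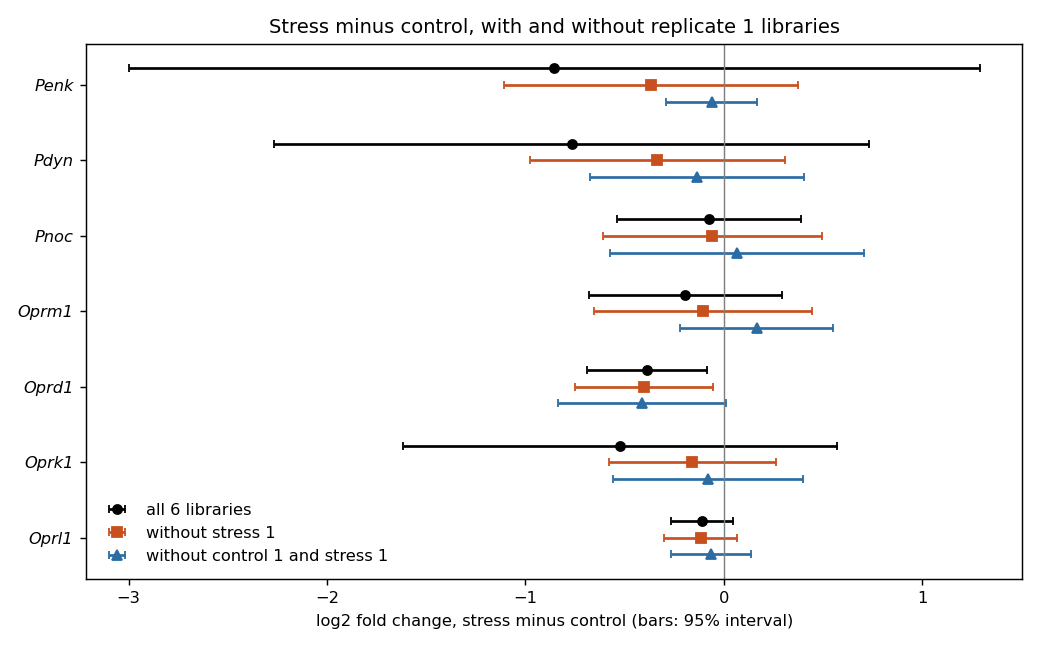
Log2 fold change of each opioid gene, stress minus control (x axis), with 95% intervals from edgeR, for all 6 libraries (black), without stress 1 (orange) and without control 1 and stress 1 (blue). The Penk, Pdyn and Oprk1 estimates move toward 0 as the replicate 1 libraries are left out, while the Oprd1 estimate stays between -0.39 and -0.41.

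The spread between stress libraries set the opioid genes apart from each other. Stress 1 was the lowest of the 6 libraries for 4 of 7 genes (Penk, Pdyn, Oprm1 and Oprk1), against 23.1% of all tested genes. It was at least 2-fold below the median of the other 5 for 3 of 7, against 3.45% of all tested genes. Penk was 7.61-fold, Pdyn 5.03-fold and Oprk1 3.34-fold below that median in stress 1. For Oprm1, Pnoc, Oprd1 and Oprl1 stress 1 was 1.15-fold, 1.07-fold, 1.07-fold and 1.02-fold below it. The SD of the log2 level among stress libraries was larger for Penk than for 99.2% of tested genes, for Pdyn than for 98.7% and for Oprk1 than for 97.4%, and for Oprl1 it was larger than for 3.11%. With stress 1 set aside, the highest library was 1.93 times the lowest for Penk, 2.03 times for Pdyn and 1.43 times for Oprk1.

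The striatal marker list shared the low value of these 3 genes in stress 1. Relative to the control mean, the 18 striatal markers had a mean log2 level of 0.62, -0.47 and -0.15 in the controls, by replicate number, and of -2.57, -0.58 and -0.45 under stress. On the same scale Penk was at 0.51, -0.27 and -0.24 in controls and at -3.17, -0.43 and -0.21 under stress. Both series have their highest value in control 1 and their lowest in stress 1, as Pdyn has, while Oprk1 was about as high in control 3 (0.17) as in control 1 (0.16). Fewer cells of a type and less RNA per cell cannot be told apart in such bulk tissue. Of the 18 striatal markers, 18 had estimates below 0 (median log2 fold change -0.92), against 51.6% of all tested genes, and 0 passed the test. The median was -0.54 without stress 1, -0.54 without control 1 and -0.20 without both. For 5 of the 18 every stress library was lower than any control, against 4.48% of all tested genes. Control 1 was highest and stress 1 lowest for 18 of 18, so these markers are not separate observations. With the striatal level as a covariate, the estimates were 0.24 ± 0.21 for Penk, 0.11 ± 0.22 for Pdyn, 0.16 ± 0.20 for Oprk1 and 0.11 ± 0.23 for Oprm1, all with intervals that include 0. Oprd1 was at -0.38 ± 0.18 in that fit, with an interval from -0.79 to 0.02. The fit cannot test what part striatal cells have. Its covariate is itself lowest in stress 1 and includes Ppp1r1b, whose Pearson r with Penk was 0.998.

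Penk and Pdyn were set, as ratios, beside markers of the striatal cells that carry enkephalin and dynorphin. Drd2, the dopamine receptor of enkephalin neurons, was at 1.75 CPM in stress 1, on 17 counts, and at 17.2 to 45.1 CPM elsewhere. Adora2a, the adenosine receptor of the same neurons, had 7 counts in stress 1 (0.719 CPM), against 30.7 to 82.5 CPM elsewhere. Penk counts per Drd2 count were 8.46 to 12.9 in controls, 10.8 and 12.8 in stress 2 and 3, and 16.9 in stress 1. Penk counts per Adora2a count were 4.27 to 5.85 in controls, 4.81 in stress 2 and 7.51 in stress 3, and 41.1 in stress 1. In stress 1 both ratios were the highest of the 6 libraries, on 17 counts of Drd2 and 7 of Adora2a. Penk counts per Drd2 count lay between 8.46 and 16.9, while Penk itself differed 12.9-fold between its highest and lowest library. Pdyn counts per count of Drd1, the dopamine receptor of dynorphin neurons, were 0.404 to 0.542 in controls, 0.402 and 0.466 in stress 2 and 3, and 0.266 in stress 1, so that Pdyn was further below than Drd1 in that library.

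Markers of the central nucleus, of intercalated cells and of other neurons were set beside the opioid genes in the same way. Of 13 tested central amygdala markers 11 had estimates below 0 (median -0.30; -0.10 without stress 1 and -0.0032 without control 1 and stress 1), and stress 1 was at -0.96 on the log2 scale relative to controls. Prkcd, which marks a class of central amygdala neurons, was at 7.08 CPM in stress 1 and 14.2 to 17.3 CPM elsewhere. Of 9 intercalated cell markers 8 were below 0 (median -0.31; -0.17 without stress 1, -0.16 without control 1 and 0.09 without both), and Foxp2, a transcription factor of those cells, was at 11.4 CPM in stress 1 and at 32.5 to 54.5 CPM elsewhere. Sst, an interneuron and central amygdala peptide, showed no such dip, at 160.5 CPM in stress 1 and 136 to 147 CPM elsewhere. Of 14 interneuron markers 10 were below 0 (median -0.11). Of 14 basolateral projection neuron markers 13 were above 0 (median 0.14; 0.01 without stress 1, 0.0076 without control 1 and -0.08 without both). Their mean log2 level was highest in stress 1, at 0.42 relative to controls. Their summed level was not, at 3907 CPM in stress 1 and 3388 to 4289 CPM elsewhere. Among all tested genes 51.6% had estimates below 0. None of these markers passed the test, and their part in the opioid values was not tested. The fits with a striatal or choroid plexus covariate are descriptions and do not test such a part.

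Oprk1 was also read against markers of the claustrum and endopiriform nucleus, which lie beside the basolateral amygdala. Of 8 tested markers 3 were below 0 (median 0.02). Nr4a2, a transcription factor of claustral neurons, was highest in stress 1, at 99.0 CPM against 30.6 to 69.4 CPM elsewhere, the library in which Oprk1 was lowest. Synpr, a synaptic vesicle protein gene, was lowest in stress 1, at 87.1 CPM against 143 to 193 CPM elsewhere. Gnb4 (40.4 against 58.2 to 87.7 CPM) and Slc17a6 (21.3 against 32.5 to 67.7 CPM) were also lowest there, so the list's markers ran in both directions in that library. Choroid plexus markers (11 of 12 below 0, median -0.37) followed another pattern of libraries, with Ttr at 2128, 3777 and 5553 CPM in control 1, control 2 and stress 2 and 2.87 to 18.9 CPM elsewhere. With that level as a covariate Penk was at -0.69, Pdyn at -0.70, Oprk1 at -0.50 and Oprd1 at -0.47. The mean log2 level of oligodendrocyte markers relative to controls was 0.42 in control 1 and -0.61 in stress 1, the libraries where Penk and Pdyn were highest and lowest, and their part in the opioid values was not tested. Among glia, 10 of 10 oligodendrocyte markers (median -0.40), 7 of 8 astrocyte markers (-0.20) and 5 of 7 microglia markers (-0.02) had estimates below 0, and 0 passed.

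**Figure D3:**
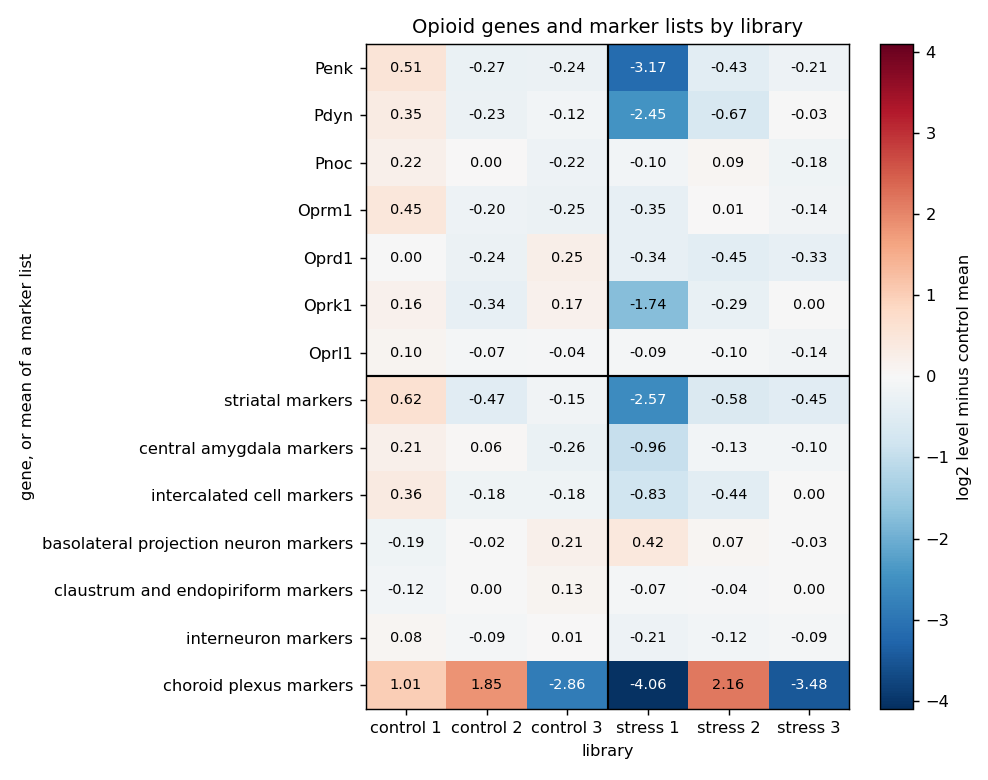
Log2 level of each opioid gene (upper 7 rows) and mean log2 level of each marker list (lower rows) relative to the control mean, by library (x axis), printed in each cell and coloured from blue (lower) to red (higher). Penk, Pdyn and Oprk1 share their low value in stress 1 with the striatal list (-2.57), while the choroid plexus list is low in control 3 and stress 3 as well.

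Levels were compared between genes per kilobase of exon, with lengths from GENCODE M21. Penk stood highest in controls, at 191 ± 63.0 CPM per kb (SD, n = 3). Oprl1 followed at 23.3 ± 1.48 and Pdyn at 14.5 ± 3.27 CPM per kb. The control ranges of these 3 genes did not overlap. Oprd1 (6.05 ± 1.03) and Oprk1 (5.35 ± 1.02) overlapped each other, as did Pnoc (1.86 ± 0.301) and Oprm1 (1.85 ± 0.547 CPM per kb). Under stress the means kept the order Penk, Oprl1 and Pdyn, at 105 ± 74.5, 21.6 ± 0.362 and 8.49 ± 5.74 CPM per kb. In stress 1 alone Penk, at 20.4 CPM per kb, was below Oprl1, at 21.8. With the median transcript length in place of all exons the first 3 ranks were the same, and Oprm1, which has 17 transcripts in that annotation, moved from 7th to 5th, so the order of the lower 4 genes depends on the length used.

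**Figure D4:**
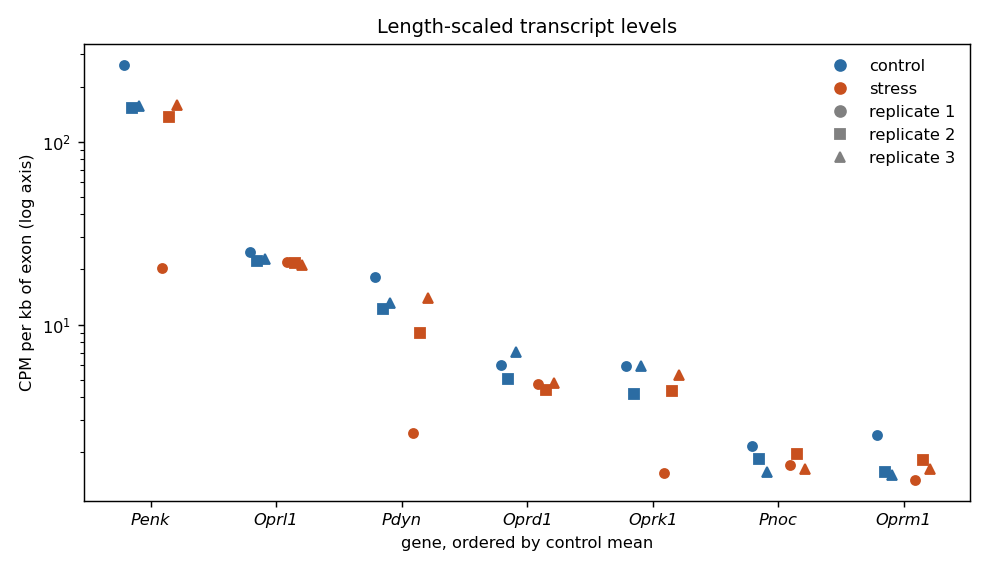
CPM per kb of exon (log y axis) of the 7 genes in each library, ordered by control mean, with controls in blue and stress in orange. Penk lies between 137 and 263 CPM per kb in 5 libraries and at 20.4 in stress 1, next to Oprl1.

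The ratio of precursor to receptor transcripts varied widely for Penk and little for Pnoc. Penk counts per Oprd1 count were 1.56 in stress 1 and 7.91 to 15.9 in the other 5 libraries. Pdyn counts per Oprk1 count varied less, at 1.54, 1.45 and 1.10 in controls and 0.819, 1.04 and 1.33 under stress, since both genes were low in stress 1. Pnoc counts per Oprl1 count lay between 0.0444 and 0.0579 in all libraries.

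The genes whose log2 level ran most like each opioid gene over the 6 libraries were taken from 11919 or 11920 genes of at least 5 CPM. With n = 6 libraries and so many genes compared, the top values of r are high by selection, and these are descriptions. For Penk they were Sv2c, a synaptic vesicle protein gene (Pearson r = 0.999), Ppp1r1b, which encodes the striatal phosphoprotein DARPP-32 (0.998), and Zfp275 (0.995). For Pdyn they were Zfhx4 (0.999), Insyn2a (0.997) and Scp2 (0.995). Without stress 1 and control 1, the libraries farthest from the Penk and Pdyn medians, r was 0.74 for Ppp1r1b with Penk and 0.99 for Zfhx4 with Pdyn. Oprk1 ran most like Epb41l2 (0.995), Fam53b (0.994) and Fbxo30 (0.994). Oprd1 ran most like Nelfa (0.985), Adgrl4 (0.982), an adhesion receptor gene of endothelium, and Dazl (0.981). Oprm1 ran most like Slc44a1 (0.985), Exoc2 (0.982) and the myelin gene Tspan2 (0.978), and r was between 0.61 and 0.70 without control 1 and stress 2. Oprl1 ran most like Galnt6 (0.987). The share of compared genes with r over 0.95 was 1.21% for Penk and 0.134% for Oprd1.

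Genes that make and remove opioid peptides had estimates in both directions. Of 14 processing and clearance genes 8 had estimates below 0 and 6 above (median log2 fold change -0.02), and 0 passed over all genes. Pcsk1 and Pcsk2, the convertases that cut the precursors, were at 0.00 ± 0.08 and -0.04 ± 0.12, and Cpe, which trims the cut ends, at -0.04 ± 0.08. Pcsk1n, which encodes an inhibitor of the first convertase, was at 105, 91.0 and 118 CPM in controls and 83.7, 74.6 and 89.1 CPM under stress. Its groups did not overlap (log2 fold change -0.35 ± 0.11, unadjusted p = 0.0125, adjusted p = 0.997, edgeR). Ece2, an endopeptidase that cuts neuropeptides, was likewise lower in each stress library than in any control (-0.35 ± 0.11, unadjusted p = 0.0103, edgeR). These were 2 of 14 with that separation, against 4.48% of all tested genes. A further 1 of 14, Pam, was higher in each stress library than in any control, against 3.8% of all tested genes. Pam was at 296, 306 and 306 CPM in controls and 333, 308 and 341 CPM under stress (0.11 ± 0.06). Mme, which encodes the enkephalin-degrading neprilysin, was at -0.35 ± 0.19, with overlapping groups. Ace, on the same list, was at 57.3, 93.1 and 106 CPM in control 1, control 2 and stress 2. It was at 18.1 to 19.9 CPM elsewhere (-0.25 ± 0.99).

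Downstream of the receptors, 31 transducer and effector genes split into 12 below 0 and 19 above (median 0.01), and 0 passed. Of these, Gprin1, a partner of inhibitory G proteins, was higher in each stress library than in any control (0.25 ± 0.08, unadjusted p = 0.0141, edgeR). Such separation held for 2 of the 31, against 3.8% of all tested genes, and for 0 in the lower direction, against 4.48%. Rgs4 and Rgs8, which speed the shut-off of G proteins, were at -0.37 ± 0.14 and -0.26 ± 0.12. The potassium channel genes Kcnj3 and Kcnj6 were at 0.20 ± 0.11 and 0.23 ± 0.13, and the arrestins Arrb1 and Arrb2 at 0.00 ± 0.09 each. Larger estimates with wider errors were those of another potassium channel gene, Kcnj5 (-0.69 ± 0.51), and the adenylyl cyclase gene Adcy8 (0.44 ± 0.20). Kcnj5 had 3 counts in stress 1 and 16 to 27 elsewhere, so its estimate rests on few counts. Adcy8 was highest in stress 1, at 75.8 CPM against 40.1 to 51.3 CPM elsewhere. Rgs9 and Adcy5, which are also on the striatal list, were at -0.99 ± 0.54 and -0.52 ± 0.24.

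Transcription factors known to act on opioid genes were 4 below 0 and 8 above of 12 (median 0.06), and 0 passed. Fosl2, an AP-1 member, was at 0.37 ± 0.15 (unadjusted p = 0.0381), and Kcnip3, which encodes DREAM, a calcium-binding repressor of Pdyn, at 0.35 ± 0.16. Both were highest in stress 1, Fosl2 at 37.9 CPM against 21.7 to 29.9 CPM elsewhere. Kcnip3 was at 163 CPM there against 95.6 to 130 CPM elsewhere. In that library 5 of these 12 factors instead had their smallest value. Among them were Fos (4.11 against 10.8 to 18.4 CPM elsewhere) and Junb (22.2 against 32.2 to 41.6 CPM). Whether the level of any factor bears on that of Pdyn was not tested. Creb1 was at -0.05 ± 0.06 and Jund at -0.26 ± 0.12. Of the 5 tested genes of the remaining opioid list 3 were below 0 (median -0.14). Pomc, the precursor of beta-endorphin, was at 4.57, 1.75 and 3.07 CPM in controls and 3.80, 1.01 and 2.58 CPM under stress, on 10 to 46 counts, with overlapping groups (-0.34 ± 0.50).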

How the data were processed

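Raw counts by gene symbol were deposited by the authors, with a file for each library. Libraries were stranded and depleted of ribosomal RNA, per the labels' protocols. Per the submitters' processing notes the tools were FastQC 0.12.1, STAR 2.7.7a, HTSeq 0.13.5 and edgeR 3.42.4 with build mm39. The sources used here give neither annotation nor strand setting. In GENCODE M21 an opposite-strand gene overlaps 10.8% of Penk exon bases and another 1.42% of Oprm1's, and whether such reads were kept apart is not known. Reads assigned to no gene (53.0 to 57.4%), to several places (6.97 to 8.16%) and ambiguous reads (0.162 to 0.194%) stayed out of library sizes.

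Here edgeR 4.0.16 in R 4.3.3 kept 14739 genes (filterByExpr, minimum count 10, minimum total 15), scaled libraries by TMM and ran the robust quasi-likelihood F test with Benjamini-Hochberg adjustment over all of them. An SE is the size of the log2 fold change divided by the root of the F statistic. Counts per library total, scaled (CPM), use TMM-scaled library sizes, and log2 levels a prior count of 2. Alternatives used DESeq2 1.42.0 and limma 3.58.1. Procedures were tested on simulated data. No 2 libraries agreed within sampling noise. The genes, lists, left-out libraries and covariates were chosen with earlier results of these data known. Named genes are the 7, per gene the 3 most alike (some of which are not reported here), per list those of smallest unadjusted p or highest level, 9 fixed markers, and some further pathway genes chosen after their values were seen.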

Additional observations from a re-analysis of the deposited data

How the results depend on the processing

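No opioid gene passed the threshold in any of the 19 alternatives run. Estimates for Penk, Pdyn and Oprk1 were below 0 in 18 of 19 and those of Oprd1 and Oprl1 in 19 of 19. With the striatal covariate the estimates turned above 0 for Penk (0.24), Pdyn (0.11), Pnoc (0.0123), Oprm1 (0.11) and Oprk1 (0.16), and with the choroid plexus covariate for Pnoc (0.0113). Without both control 1 and stress 1 they turned for Pnoc (0.0662) and Oprm1 (0.16). Leaving out each library in turn gave ranges of -1.28 to -0.37 for Penk, -1.33 to -0.33 for Pdyn, -0.18 to 0.0495 for Pnoc, -0.32 to 0.0783 for Oprm1, -0.49 to -0.26 for Oprd1, -0.87 to -0.16 for Oprk1 and -0.13 to -0.05 for Oprl1. The count of genes called was 4 with edgeR's likelihood ratio test, 2 with DESeq2 and 0 to 1 with each library left out. The cause was not tested.

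Medians of lists moved by more than the spread between libraries in these cases. Without both control 1 and stress 1 they were 0.0892 for intercalated, -0.0799 for projection neuron and -0.18 for claustrum markers, and with the striatal covariate 0.0679 for intercalated and -0.11 for claustrum markers. With a single library left out, the processing median moved without control 1 (-0.0673) and the transducer median without control 3 (0.10). The choroid plexus median moved without stress 2 (-4.89). With each library left out in turn, their ranges were -0.0673 to 0.0143, -0.0282 to 0.10 and -4.89 to 0.47, in that order. Within the spread between libraries, the same range was -1.23 to -0.54 for striatal, -0.50 to -0.10 for central amygdala and -0.59 to -0.16 for intercalated markers. Replicate numbers did not pair the libraries (correlation of deviations -0.32, 0.53 and 0.28 for numbers 1 to 3). With the replicate number as a block 0 genes were called, Penk was at -1.11, Oprd1 at -0.38 and the choroid plexus median at -1.13. Depth limits Pnoc, Pomc and Kcnj5, with under 50 counts per library.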
